A study of Drosophila melanogaster with 2 samples.

Results

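The 9 genes described here build and assemble chitin in the Drosophila melanogaster embryo: mmy, kkv, knk, rtv, serp, verm, obst-A, obst-E and Gasp. They were chosen by symbol from 17301 genes with an identifier, all 9 were found, and together they hold 22 annotated transcripts. The values come from 2 RNA-seq libraries of the poly(A) fraction, 1 for each genotype, each from pooled whole embryos collected over 0 to 16 h at 25 °C. In the library labelled Lim3_knockdown, the embryos carried the driver P{en2.4-GAL4}e22c with P{TRiP.JF02125}attP2, an RNA interference construct against Lim3. In the control library they carried the same driver with P{y+t7.7=CaryP}attP2, which holds no such construct. In both libraries the label adds P{tGPH}4 over a wild-type chromosome, with y1 w* and y1 w*/y1 v1 embryos together in the pool. In both crosses the driver parent had P{tGPH}4 over the balancer TM3, Ser1. The e22c driver is known as one active in the embryonic epidermis, a tissue that secretes chitin.

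Chitin is a polymer of N-acetylglucosamine. Epidermal, tracheal, foregut and hindgut cells of the embryo make its sugar donor UDP-N-acetylglucosamine in the cytoplasm, and a synthase in the apical membrane extrudes the chain. Proteins at the membrane and in the extracellular space then trim, bind and order the fibrils. In the trachea a chitin cable fills the lumen and sets tube diameter and length. In the epidermis chitin forms the laminate of the larval cuticle, which is laid down late in embryogenesis, so a pool of this age range includes many embryos that have not yet begun it.

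Lim3, the targeted gene, was at 18.5 FPKM (fragments scaled to a kilobase of transcript and to 1000000 mapped ones) in the library labelled Lim3_knockdown, against 5.81 FPKM in the control library. This goes against the label, so the first library is named by its label throughout. Whether the labels of the libraries are exchanged, which would turn every direction given here, or whether fragments of the RNA interference construct add to the Lim3 value, was not tested. No FPKM value below is compared with a replicate, since each genotype has 1 library. The smallest values put the depth at about 33800000 fragments in the library labelled Lim3_knockdown, against about 23800000 in the control library. Intervals printed with a ratio are exact 95% binomial (Clopper-Pearson) intervals from estimated fragments at the deposited scale. They cover counting error only, not the scaling of the libraries or differences between embryo collections or preparations.

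The genes formed a high and a low tier of expression, the same in both libraries. The secreted proteins verm, obst-A, Gasp and serp formed the high tier, between 310.5 and 476 FPKM in the library labelled Lim3_knockdown, against values between 251 and 420 FPKM in the control library. The synthase gene kkv and the assembly genes knk and rtv formed the low tier, between 26.4 and 30.8 FPKM in the library labelled Lim3_knockdown, against values between 25.6 and 27.9 FPKM in the control library. The genes obst-E and mmy lay between the tiers. FPKM is a level per transcript length, so these levels can be set beside each other. Among the 10576 genes that reached 1 FPKM in either library, verm was at percentile 97.7 in the library labelled Lim3_knockdown, against 97.2 in the control library, and rtv was at percentile 61.2 in the library labelled Lim3_knockdown, against 58.4 in the control library.

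**Figure D1:**
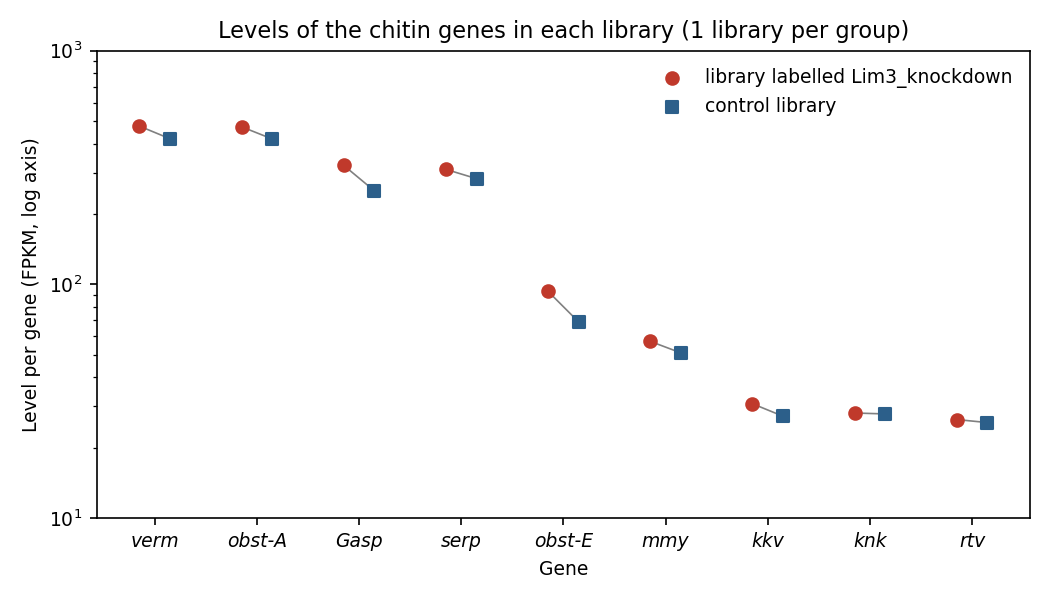
Level of each gene in FPKM (log axis), with the library labelled Lim3_knockdown as circles and the control library as squares, 1 library each and so no error bars. The 4 genes on the left lie above 251 FPKM and the 3 on the right below 31 FPKM in both libraries, and the circle stands highest relative to its square for obst-E and Gasp.

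The order of the levels was nearly the same in the 2 libraries. The exchanged neighbours were Gasp and serp, ranks 3 and 4 in the library labelled Lim3_knockdown, against ranks 4 and 3 in the control library, and kkv and knk, ranks 7 and 8 in the library labelled Lim3_knockdown, against ranks 8 and 7 in the control library. With 1 library a genotype the spread of a level is unknown, so the order of neighbours this close, verm and obst-A at the top and kkv, knk and rtv at the bottom, is not settled. The 9 genes summed to 1817 FPKM in the library labelled Lim3_knockdown, against 1574 FPKM in the control library, a ratio of 1.15. The 3 chitin-binding genes held 48.9% of this sum in the library labelled Lim3_knockdown, against 47.0% in the control library. The 2 deacetylase genes held 43.3% in the library labelled Lim3_knockdown, against 44.7% in the control library, and kkv held 1.70% in the library labelled Lim3_knockdown, against 1.73% in the control library.

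All 9 genes were higher in the library labelled Lim3_knockdown, by small amounts, but knk was at -0.01 (log2) with the length trend removed and rtv at -0.10 with its main transcript alone. Of all 10576 genes tested, 43.5% were higher in that library, and of the 4821 genes with at least 20 FPKM in both libraries, a level that all 9 reach, 30.2% were. On the scale log2((knockdown + 1)/(control + 1)) in FPKM, the differences of the 9 ran from 0.01 at knk to 0.43 at obst-E, with a median of 0.17, while the median of all tested genes was -0.04. None of the 9 was 1.5-fold apart in either direction, against 2.71% of tested genes 1.5-fold or more higher and 3.13% lower by as much. These counts rest on the deposited scale: with the library labelled Lim3_knockdown rescaled so that both FPKM sums are equal, the median of the 9 was 0.44, obst-E and Gasp were 1.5-fold or more higher, and so were 7.99% of all tested genes, with 1.84% lower by as much. By a rule of at least 25% obst-E and Gasp were higher, 2 of 9 genes, and none was lower, beside 8.65% of tested genes higher and 15.9% lower. After that rescaling 7 of the 9 were higher by this rule and none lower, beside 33.6% of all tested genes higher and 3.51% lower. At the deposited scale the counting interval of the ratio lay above 1 for 7 genes and included 1 for knk and rtv. The share of all tested genes with such an interval was not computed, and a rescaling would shift every interval.

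**Figure D2:**
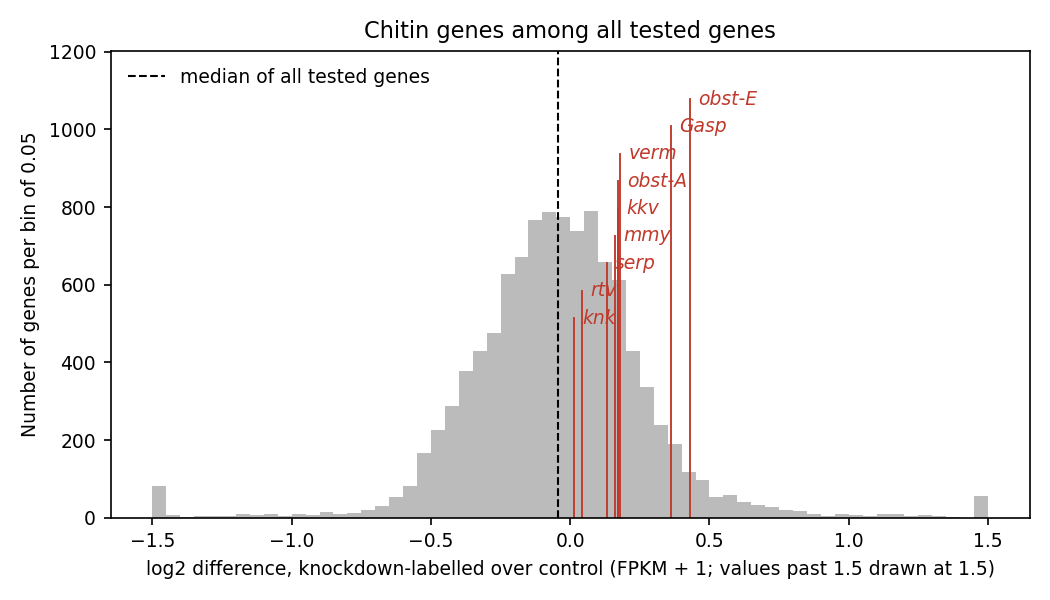
Histogram of the log2 difference (library labelled Lim3_knockdown over control, 1 added to each FPKM) of all 10576 tested genes in bins of 0.05, with the 9 genes as labelled vertical lines of arbitrary height. With the deposited values all 9 lines lie to the right of 0 and of the dashed median of all genes at -0.04, and all lie below 0.45.

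The sugar donor of chitin is made by mmy (mummy, FBgn0259749), UDP-N-acetylglucosamine pyrophosphorylase, the last step of the hexosamine pathway, whose product also feeds protein glycosylation. In the files' coordinates mmy lies on 2L from 6468538 to 6473904. It was at 57.0 FPKM in the library labelled Lim3_knockdown, against 50.9 FPKM in the control library, a ratio of 1.12 (1.06 to 1.18) and a log2 difference of 0.16. Its 3 transcripts have different first exons, the last exon of FBtr0079268 is shorter than that of the other two, and 2 proteins are encoded. FBtr0079268, which encodes 520 residues, was at 26.6 FPKM in the library labelled Lim3_knockdown, against 23.4 FPKM in the control library. The 2 transcripts that encode 483 residues, FBtr0079269 and the rare FBtr0339787, summed to 30.3 FPKM in the library labelled Lim3_knockdown, against 27.5 FPKM in the control library. The longer protein form thus held 46.8% of the gene's FPKM in the library labelled Lim3_knockdown, against 46.0% in the control library, and neither form dominated.

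Chitin synthase is encoded by kkv (krotzkopf verkehrt, FBgn0001311), the membrane enzyme that polymerises chitin in epidermis and trachea. The gene spans 14774 nt on 3R, from 1203815 to 1218588 in the files' coordinates. It was at 30.8 FPKM in the library labelled Lim3_knockdown, against 27.2 FPKM in the control library, a ratio of 1.13 (1.08 to 1.18) and a log2 difference of 0.17. In the Release 6 annotation its 3 transcripts encode proteins of equal length, 1615 residues, and choose between 2 forms of exon 7 of 177 nt each. The transcripts with the form nearer the gene's start, FBtr0078800 and FBtr0078798, summed to 28.5 FPKM in the library labelled Lim3_knockdown, against 25.3 FPKM in the control library. FBtr0301398, with the other form, was at 2.30 FPKM in the library labelled Lim3_knockdown, against 1.92 FPKM in the control library. The first form made up 92.5% of kkv in the library labelled Lim3_knockdown, against 92.9% in the control library, so the exon choice was close in the 2 pools.

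The genes knk and rtv encode proteins of the plasma membrane that are needed to order chitin once it is made, knk (Knickkopf) with a domain of the DOMON type and rtv (Retroactive) as a small GPI-anchored protein of the Ly6 family, needed in the beetle Tribolium for Knickkopf to reach the membrane. They were the 2 genes closest between the libraries. With a single annotated transcript that encodes 689 residues, knk (FBgn0001321, 3R from 5948087 to 5951386) was at 28.1 FPKM in the library labelled Lim3_knockdown, against 27.9 FPKM in the control library, a ratio of 1.01 (0.949 to 1.07). In the Release 6 annotation 1712 nt of its exons overlap an antisense gene, asRNA:CR46038, and whether the counting used strand is not given in the sources used here, so reads of the antisense gene cannot be told apart from those of knk.

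rtv (FBgn0261277, on X) was at 26.4 FPKM in the library labelled Lim3_knockdown, against 25.6 FPKM in the control library, a ratio of 1.03 (0.930 to 1.14). The files give rtv the span of a bundle of genes, which is not printed, and 109 nt of its exons overlap Lint-1 on the opposite strand. Its transcripts did not all lie on the same side. FBtr0073470 was at 9.04 FPKM in the library labelled Lim3_knockdown, against 7.27 FPKM in the control library, while FBtr0331742 was at 17.0 FPKM in the library labelled Lim3_knockdown, against 18.3 FPKM in the control library. FBtr0346379 was at 0.315 FPKM in the library labelled Lim3_knockdown but was listed at 0 in the other, and FBtr0331743 was listed at 0 in both. The first 3 encode the same 151 residues and differ in their 5' untranslated regions. The share of FBtr0331742 in rtv was 64.5% in the library labelled Lim3_knockdown, against 71.6% in the control library.

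The chitin deacetylase genes serp (serpentine, FBgn0260653) and verm (vermiform, FBgn0261341) encode secreted proteins with a chitin-binding, an LDL-receptor and a deacetylase domain, which limit tracheal tube length. They are neighbours on 3L, on the same strand, 5716 nt apart with no annotated gene between them. In the files' coordinates verm lies from 19683133 to 19688360 and serp from 19694077 to 19701115. verm was at 476 FPKM in the library labelled Lim3_knockdown, against 420 FPKM in the control library, a ratio of 1.13 (1.11 to 1.15). serp was at 310.5 FPKM in the library labelled Lim3_knockdown, against 283 FPKM in the control library, a ratio of 1.10 (1.07 to 1.12). The log2 differences of the pair, 0.18 and 0.13, were close to each other and to those of kkv and mmy.

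The verm transcripts differ in a coding exon. FBtr0302335, with an exon of 113 nt there, held 94.0% of verm in the library labelled Lim3_knockdown, against 94.6% in the control library. The 2 transcripts with an alternative exon of 131 nt, FBtr0345144 and FBtr0345145, summed to 28.5 FPKM in the library labelled Lim3_knockdown, against 22.7 FPKM in the control library, a ratio of 1.26 (1.17 to 1.35), against 1.13 (1.11 to 1.15) for FBtr0302335. FBtr0345145 also has an additional coding exon of 72 nt and was at 6.52 FPKM in the library labelled Lim3_knockdown, against 5.66 FPKM in the control library. Its ratio was 1.15 with an interval that includes 1 (0.998 to 1.33). The ratio of FBtr0345144 was 1.29 (1.19 to 1.40), so the summed ratio rests mainly on FBtr0345144. The 2 serp transcripts encode the same 541 residues and differ in the 5' untranslated region. FBtr0333862 was at 302 FPKM in the library labelled Lim3_knockdown, against 274 FPKM in the control library, and FBtr0074953, with the longer region of 541 nt, at 8.76 FPKM in the library labelled Lim3_knockdown, against 9.03 FPKM in the control library.

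The 3 genes of the Obstructor family encode small secreted proteins with chitin-binding domains of the peritrophin type, and they held both of the genes past the 25% rule. obst-A (FBgn0031097, X from 20110929 to 20114283), a scaffold protein of cuticle and tracheal matrix, was at 472 FPKM in the library labelled Lim3_knockdown, against 419 FPKM in the control library, a ratio of 1.13 (1.10 to 1.15). Gasp, also called obst-C (FBgn0026077, 3R from 1914521 to 1926609), a component of the tracheal luminal matrix, was at 323 FPKM in the library labelled Lim3_knockdown, against 251 FPKM in the control library. Its ratio was 1.29 (1.252 to 1.32) and its log2 difference 0.36. obst-E (FBgn0031737, 2L from 5762553 to 5766142), known for its part in the larval cuticle that shapes the body at pupariation, was at 93.2 FPKM in the library labelled Lim3_knockdown, against 68.9 FPKM in the control library. Its ratio was 1.35 (1.27 to 1.44) and its log2 difference, 0.43, stood at percentile 95.1 of all tested genes.

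At the deposited scale the difference of obst-A lay mainly in 1 of its transcripts. Both encode the same 237 residues and share all exons up to the last, which ends at different places. FBtr0077334, with a 3' untranslated region of 1068 nt, stood at 97.9 FPKM in the library labelled Lim3_knockdown, against 61.5 FPKM in the control library, a ratio of 1.59 (1.52 to 1.67). FBtr0306737, whose region has 398 nt, stood at 375 FPKM in the library labelled Lim3_knockdown, against 358 FPKM in the control library, a ratio of 1.05 (1.02 to 1.07). The long form held 20.7% of obst-A in the library labelled Lim3_knockdown, against 14.7% in the control library. It accounted for 68.2% of the gene's difference in FPKM as deposited. A rescaling would leave the first 2 shares as they are but change the last, which was not computed at another scale. At the deposited scale the long form was the only one of the 22 transcripts past 1.5-fold among those not listed at 0. The share of all transcripts past 1.5-fold was not computed. Of all tested genes 2.71% were 1.5-fold or more higher and 3.13% lower by as much. The difference between the libraries also varied with transcript length over all genes: the running median of the log2 difference was -0.03 at 1905 nt, the length of the long form, and -0.12 at 1235 nt, that of the short form. The part of this trend in the difference between the forms was not tested.

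obst-E has 2 transcripts that join a shared first exon to different second exons and so encode different proteins. FBtr0079163, of 242 residues, was at 56.0 FPKM in the library labelled Lim3_knockdown, against 42.8 FPKM in the control library, a ratio of 1.31 (1.21 to 1.41). FBtr0079164, of 249 residues, was at 37.3 FPKM in the library labelled Lim3_knockdown, against 26.1 FPKM in the control library, a ratio of 1.43 (1.30 to 1.58). Both forms were higher in the library labelled Lim3_knockdown, and their intervals overlap. Almost all of Gasp was FBtr0078619, at 321 FPKM in the library labelled Lim3_knockdown, against 249 FPKM in the control library, while FBtr0112922, with a different last exon, was at 2.39 FPKM in the library labelled Lim3_knockdown, against 2.60 FPKM in the control library.

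Across the 22 transcripts at the deposited scale, 18 were higher in the library labelled Lim3_knockdown, 3 were lower and 1 was listed at 0 in both. The share of all transcripts that were higher was not computed. Of all tested genes 43.5% were higher as deposited and 78.5% after rescaling to an equal FPKM sum. The 3 lower transcripts were the minor forms of serp and Gasp and the major form of rtv, each with an interval that includes 1. The authors' software divided fragments from shared exons among transcripts, so transcript values are estimates, and error in dividing them is outside the intervals.

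**Figure D3:**
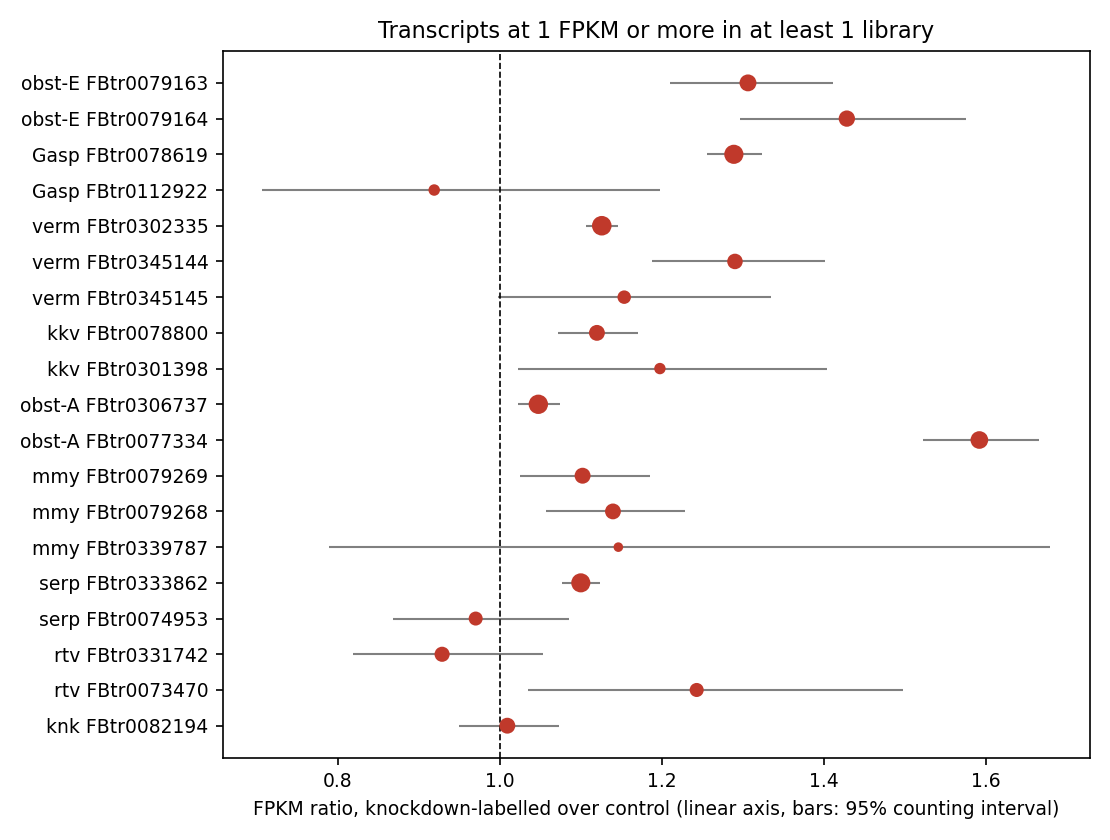
FPKM ratio (library labelled Lim3_knockdown over control, linear axis) of the 19 transcripts at 1 FPKM or more in at least 1 library, with 95% counting intervals as bars and larger points for higher FPKM. The long 3' form of obst-A, FBtr0077334, stands furthest to the right at 1.59, and both obst-E forms lie above 1.2.

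Other genes of the chitin pathway did not lie uniformly on 1 side. Of 38 such genes found in the files 29 reached 1 FPKM, and 17 were higher and 12 lower in the library labelled Lim3_knockdown, with a median log2 difference of 0.07, beside 43.5% of all tested genes higher. With the library labelled Lim3_knockdown rescaled by 1 factor to an equal FPKM sum, 28 were higher and 1 lower. Of all tested genes 78.5% were higher after this rescaling. By the 25% rule 3 of the 29 were higher, Cda5, obst-J and the weakly expressed Idgf1, and none lower, a share near the 8.65% of all tested genes. After the rescaling 14 of the 29 were higher by that rule, beside 33.6% of all tested genes. In the steps before mmy, Gfat1, which commits sugar to the hexosamine pathway, was at 113 FPKM in the library labelled Lim3_knockdown, against 97.6 FPKM in the control library, but its paralog Gfat2 was at 43.5 FPKM in the library labelled Lim3_knockdown, against 47.3 FPKM in the control library. The acetyltransferase gene Gnpnat was at 96.8 FPKM in the library labelled Lim3_knockdown, against 98.0 FPKM in the control library, and the mutase gene nst at 94.7 FPKM in the library labelled Lim3_knockdown, against 107 FPKM in the control library. Thus 1 of 4 upstream enzyme genes was higher with the deposited values, and all 4 were after rescaling to an equal sum, as were 78.5% of all tested genes.

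Of the 3 other chitin synthesis genes, exp, reb and Chs2, all were slightly higher at the deposited scale, where 43.5% of all tested genes were higher. exp and reb encode proteins needed for chitin deposition by kkv. exp was at 26.2 FPKM in the library labelled Lim3_knockdown, against 24.5 FPKM in the control library, and reb at 5.46 FPKM in the library labelled Lim3_knockdown, against 4.57 FPKM in the control library. The second chitin synthase gene Chs2, known from the gut, was low at 2.03 FPKM in the library labelled Lim3_knockdown, against 1.90 FPKM in the control library, far below kkv in both pools. Among the other deacetylase genes Cda5 was at 12.4 FPKM in the library labelled Lim3_knockdown, against 8.19 FPKM in the control library (log2 0.54), Cda4 at 140 FPKM in the library labelled Lim3_knockdown, against 123 FPKM in the control library (0.18) and ChLD3 at 18.1 FPKM in the library labelled Lim3_knockdown, against 19.4 FPKM in the control library (-0.09).

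Within the Obstructor family the members were not alike. obst-B, a paralog of obst-A and Gasp, was at 92.0 FPKM in the library labelled Lim3_knockdown, against 113 FPKM in the control library, with a log2 difference of -0.29, or -0.01 after rescaling to an equal sum. obst-J was at 6.003 FPKM in the library labelled Lim3_knockdown, against 4.03 FPKM in the control library (0.48). Peritrophin-A was at 83.4 FPKM in the library labelled Lim3_knockdown, against 79.6 FPKM in the control library (0.07) and obst-H at 8.29 FPKM in the library labelled Lim3_knockdown, against 7.98 FPKM in the control library (0.05). The remaining 4 of this list did not reach 1 FPKM.

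Genes of the chitinase family were divided at the deposited scale. Of 12 chitinase-family genes tested, 6 were higher and 6 lower in the library labelled Lim3_knockdown, with a median of 0.03, and all 12 were higher after rescaling to an equal sum, at which 78.5% of all tested genes were, against 43.5% as deposited. Cht7 was at 59.4 FPKM in the library labelled Lim3_knockdown, against 51.7 FPKM in the control library (0.19), Cht2 at 45.1 FPKM in the library labelled Lim3_knockdown, against 45.8 FPKM in the control library (-0.02), and Cht5, a chitinase of moulting, at 14.4 FPKM in the library labelled Lim3_knockdown, against 13.4 FPKM in the control library (0.09). The imaginal disc growth factors, chitinase-like proteins without enzyme activity, included the most abundant genes of this list. Idgf4 was at 616 FPKM in the library labelled Lim3_knockdown, against 666 FPKM in the control library (-0.11), and Idgf6 at 429 FPKM in the library labelled Lim3_knockdown, against 506 FPKM in the control library (-0.24). Among the hexosaminidase genes Hexo1 was at 44.7 FPKM in the library labelled Lim3_knockdown, against 51.2 FPKM in the control library (-0.19), Hexo2 at 21.2 FPKM in the library labelled Lim3_knockdown, against 19.8 FPKM in the control library (0.09) and fdl at 10.2 FPKM in the library labelled Lim3_knockdown, against 9.42 FPKM in the control library (0.10).

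**Figure D4:**
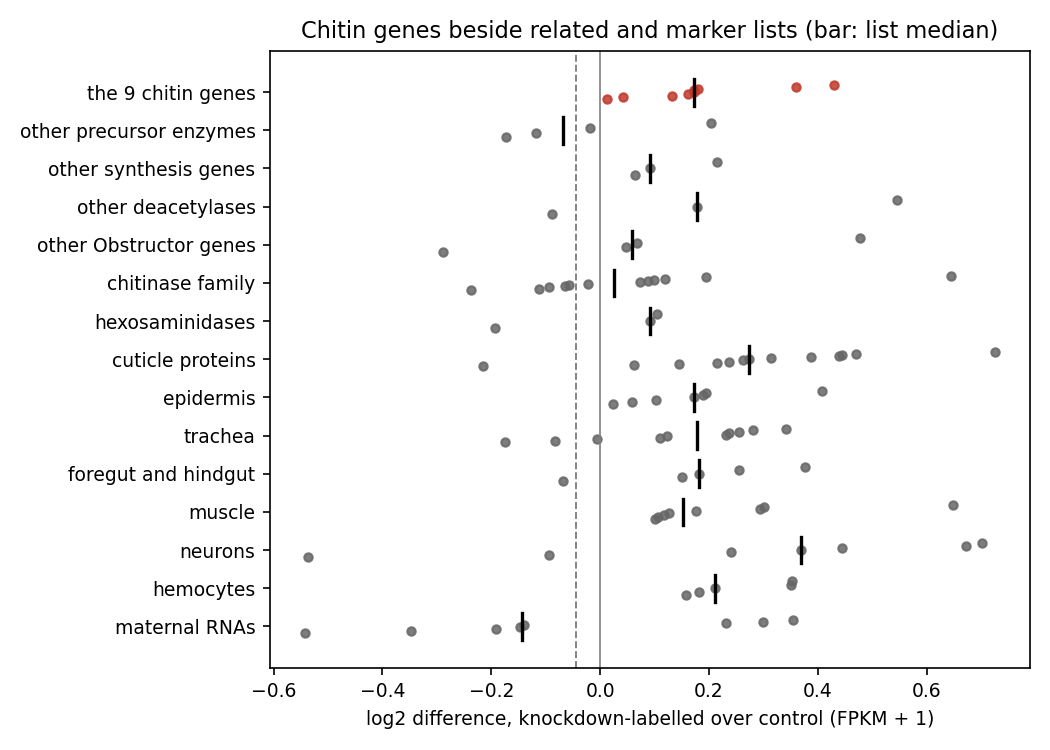
Log2 difference (library labelled Lim3_knockdown over control, 1 added to each FPKM) of each gene at 1 FPKM or more, by list, with the list median as a black bar, 0 as a solid line and the median of all tested genes as a dashed line. The 9 chitin genes (top row) all lie above 0 at the deposited scale, while the other precursor enzymes and the chitinase family spread over both sides. After rescaling to an equal sum, which multiplies 1 library by 1 factor, these too lie above 0.

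Genes of the tissues that make chitin, and of tissues that do not, were also mostly higher in the library labelled Lim3_knockdown. The counts below are at the deposited scale, where 43.5% of all tested genes were higher. Of 13 cuticle protein genes 12 were higher, with a median of 0.27. The largest difference of this list was that of Cpr49Ae, at 8.96 FPKM in the library labelled Lim3_knockdown, against 5.02 FPKM in the control library, and the lowest was that of TwdlT, at 58.7 FPKM in the library labelled Lim3_knockdown, against 68.3 FPKM in the control library. All 7 genes of the epidermis list were higher (median 0.17, summed level 126 FPKM in the library labelled Lim3_knockdown, against 113 FPKM in the control library), as were 7 of 10 tracheal genes (median 0.18) and 4 of 5 genes of the foregut and hindgut (median 0.18). In tissues without chitin, all 8 muscle genes were higher (median 0.15), all 5 hemocyte genes (median 0.21) and 5 of 7 neuronal genes (median 0.37). The neuronal median rests on genes at low levels and was 0.20 with a pseudocount of 5. The 2 lower neuronal genes were elav (-0.09) and Syx1A (-0.54). The median of the 9 chitin genes, 0.17, thus lay among the medians of these lists. Of the maternally supplied RNAs 3 of 8 were higher (median -0.14, or 0.13 after rescaling to an equal sum), and of 91 cytosolic ribosomal protein genes 1 was (median -0.42, or -0.14 after rescaling). The part of these lists in the values of the 9 genes was not tested. Whole embryos were sequenced, so more cells that make chitin, more RNA per cell and a pool with more late embryos cannot be told apart.

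How far the 9 genes lay above 0 depended on how the libraries were scaled. The FPKM sum was 1122636 in the library labelled Lim3_knockdown, against 1363810 in the control library, and ribosomal protein genes held 45.9% of it in the library labelled Lim3_knockdown, against 51.2% in the control library. When both libraries were set to an equal sum, 78.5% of all tested genes were higher in the library labelled Lim3_knockdown, their median was 0.21, and that of the 9 was 0.44. As deposited, the median of the 9 lay 0.22 above that of all tested genes, and all 9 genes were above it. Each rescaling multiplies 1 library by 1 factor, so it cannot change the order of the genes' ratios and bears on the level of the differences alone.

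**Figure D5:**
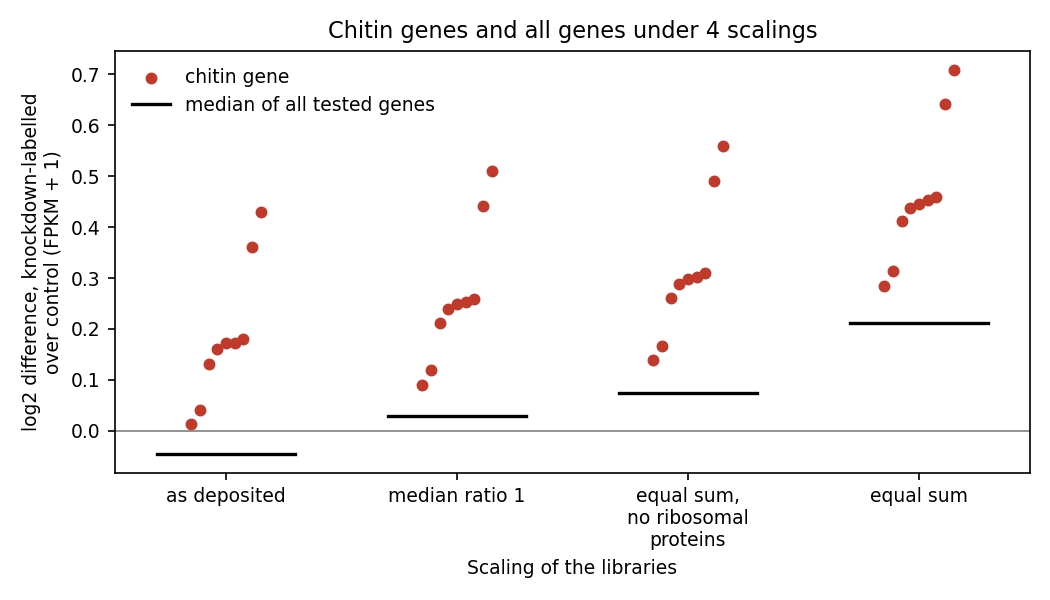
Log2 difference (library labelled Lim3_knockdown over control, 1 added to each FPKM) of the 9 genes as points, under the deposited values and 3 rescalings, with the median of all tested genes as a black bar. Each rescaling multiplies the library labelled Lim3_knockdown by 1 factor, so points and bar move up together by construction. Because 1 is added to each FPKM, low genes move less. The bar is at -0.04 as deposited and at 0.21 after rescaling to an equal sum.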

How the data were processed

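Each sample has a table of FPKM per annotated transcript (33887 transcripts), computed by the authors, per the file headers. TopHat and Cuffdiff are named in the submitters' processing notes, with settings, genome build, annotation and strand handling not given in the sources used here. Per the labels' protocols, a directional kit was used and a gel kept library molecules between 250 and 400 bp.

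FPKM was summed over the transcripts of each gene identifier, leaving out 365 transcripts with none. Genes reaching 1 FPKM in either library (10576) were tested against rules of 1.25-fold (the 25% rule) and 1.5-fold in either direction. Both rules used the log2 scale with a pseudocount of 1, which understates differences of low genes. With 1 library per group there is no test and no p-value. The value of 1 fragment was the mode of FPKM times length among low values (29.6 in the library labelled Lim3_knockdown, 42.0 in the control library) of genes with 1 transcript of 1000 to 3000 nt. The steps were run on simulated counts with known fragment sizes and some genes changed 2-fold. That simulation held no smaller changes and no division of fragments among transcripts, so it does not bear on either. Exon structures, protein lengths and overlaps come from Ensembl release 115 (Release 6 coordinates, not printed), where all 22 transcript lengths equal those in the files, and printed coordinates are those of the files with the start counted from 1. The 9 genes and all lists were chosen with earlier results of these data known. Every gene of the chitin lists at 1 FPKM or more could be named, and at most 2 per direction of the other lists. Alternatives were the pseudocount, the filter, 3 rescalings, removal of the length trend (running median over 501 genes) and the main transcript alone. Python 3.11.15, pandas 2.3.3 and scipy 1.17.1 were used.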

Additional observations from a re-analysis of the deposited data

How the results depend on the processing

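Of the 9 genes, all higher in the library labelled Lim3_knockdown as deposited, 8 were higher with the length trend removed (knk at -0.01) or with the main transcript alone (rtv at -0.10). The pseudocounts cannot change a direction, and the 3 rescalings all raise that library, so neither bears on this count. The median of the 9, 0.17 as deposited, was 0.44 after rescaling to an equal FPKM sum, 0.30 after rescaling to an equal sum without ribosomal protein genes and 0.25 after rescaling to a median ratio of 1. Without each gene in turn it stayed between 0.166 and 0.172, and the mean, added after the values were seen, was 0.18. The number of genes 1.5-fold apart was 0 as deposited, beside 2.71% of all tested genes higher and 3.13% lower by as much. After rescaling to an equal sum it was 2, beside 7.99% higher and 1.84% lower. With a call at 25% it was 2 as deposited, beside 8.65% higher and 15.9% lower. With a call at 2-fold it was 0, and the share of all tested genes at 2-fold was not computed. With the main transcript alone obst-A was at 0.07, against 0.17 for the gene. Of the 14 gene lists, the median changed sign for the precursor enzymes under all 3 rescalings (0.21, 0.06 and 0.01), for the maternal RNAs after rescaling to an equal sum (0.13), and for the chitinase family without a filter (-0.03) and at 5 FPKM (-0.06). The fragment size from length minus 200 nt, also added after the values were seen, also gave 7 genes with an interval above 1 at the deposited scale. That setting changes the widths of the intervals but not the ratios, so it bears little on the number. The share of all tested genes with such an interval was not computed. No paired analysis was possible because each group has 1 library. With no replicate, differences of the size seen here cannot be set against the spread between embryo collections, at any depth.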
